A study of Drosophila melanogaster with 2 samples.

Results

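The genes described here are 10 components of the Hedgehog and Wingless signalling pathways of Drosophila melanogaster, out of 18164 annotated genes on the 6 chromosome arms considered. Hedgehog signalling is represented by hh, ptc, smo, ci and en, and Wingless signalling by wg, fz, arm, pan and nkd. The genes were chosen by name, with the signalValues and ranks of their peaks in these same lists already known. A peak belongs to a gene when its summit lies inside the gene or within 5000 bp of one of its transcription start sites (TSSs). Because peak strength was in view when the genes were listed, counts and strengths of their peaks are a description and none was tested.

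The peaks come from chromatin immunoprecipitation and sequencing (ChIP-seq) of CG12299, a protein that the RefSeq annotation leaves uncharacterized. Both biological replicates (2 in all) were whole embryos collected over 0 to 24 h from the same transgenic line, which stably carries CG12299 with GFP fused to its C terminus. The labels describe precipitation with anti-GFP, although their antibody field names CG12299. There was 1 group and no second condition, so the values are averages over all cells and stages of the embryo, for a tagged protein.

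The authors called peaks on each replicate and on both replicates together (the pooled list), and kept those that passed their threshold on reproducibility between replicates (the thresholded list). Each peak carries a signalValue, the authors' score. Its scale differs between the replicate and pooled lists, so only ranks, with 1 the strongest, are set side by side across them. The thresholded list held the 3672 strongest of 29999 pooled peak positions, and its lowest signalValue was 107.

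In the Hedgehog pathway the secreted ligand Hedgehog (Hh) binds the receptor Patched (Ptc), which otherwise holds the membrane protein Smoothened (Smo) inactive. Active Smoothened signals to the transcription factor Cubitus interruptus (Ci), a Gli family protein. In the Wingless pathway the ligand Wingless (Wg), a Wnt protein, binds Frizzled (Fz) receptors, which stabilises Armadillo (Arm, the fly beta-catenin) so that it acts with the DNA-binding protein Pangolin (Pan, the fly TCF). In the embryonic epidermis cells that express engrailed (en), a homeodomain factor gene, make Hh, their neighbours make Wg, and naked cuticle (nkd) is induced by Wg and restrains it.

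Thresholded peaks lay at ptc and ci of the Hedgehog genes and at fz, pan and nkd of the Wingless genes, while hh, smo, en, wg and arm had only weaker peaks of the pooled list. There were 15 thresholded peaks in all: 5 at fz, 3 at nkd, 3 at ci, 2 at ptc and 2 at pan. Each of the 10 genes had at least 1 pooled peak, but the share of all annotated genes with one was not counted. At the 5 genes without a thresholded peak every pooled peak had a -log10 q-value below the lowest in the thresholded list. Their best -log10 q-value was 0.453 at en, 0.658 at wg, 1.09 at hh, 1.76 at arm and 2.89 at smo. The lowest in the thresholded list was 3.01. By the assignment rule used here 37.5% of all annotated genes and 40.2% of protein-coding genes had a thresholded peak, beside 5 of 10 members. The rule takes in whole genes and so more sequence at long ones. All 3 members of 40 kb or longer (fz, pan and nkd) had a thresholded peak, where 55.3% of annotated genes of that length did. Of the 7 shorter members 2 had one, where 37.1% of annotated genes under 40 kb did. The split at 40 kb was chosen after the values were seen. Within 5000 bp of a TSS alone, gene bodies left out, the same 5 members had a thresholded peak, beside 36.9% of all annotated genes. Whether gene length bears on these calls was not tested.

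The strongest peaks of the set, at nkd and fz, are shown by sequence beside weaker peaks. The sequences shown leave out the strongest peaks of pan (signalValue 287), ptc (219), ci (176) and smo (98.0). Each sequence is 101 bases of the forward strand centred on the summit, from the release 6 assembly (RefSeq, dm6 coordinates). Capitals mark matches, on either strand, to 7 words. The core of the TCF site was searched as CTTTGA and the core of the Ci site as GACCACCC. The homeodomain core was TAATTA. A word of boundary factors was TCGATA. The TATA word was TATAAA, the GA repeat was GAGAG, and the remaining word was TTTAAAA; some of these can overlap each other. The first 7 are thresholded peaks, and the last 3 are the strongest pooled peaks of hh, wg and arm, shown for contrast.
nkd, 158 bp upstream of the TSS, chr3L:19045557-19045657: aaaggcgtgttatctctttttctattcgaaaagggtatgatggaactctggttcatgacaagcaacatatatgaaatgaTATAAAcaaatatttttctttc
nkd, intron, 2765 bp downstream, chr3L:19042634-19042734: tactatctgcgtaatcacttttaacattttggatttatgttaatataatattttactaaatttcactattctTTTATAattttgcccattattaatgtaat
fz, intron, 29752 bp downstream, chr3L:14304045-14304145: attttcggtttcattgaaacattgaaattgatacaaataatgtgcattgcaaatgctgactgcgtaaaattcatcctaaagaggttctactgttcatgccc
fz, 1799 bp upstream, chr3L:14272494-14272594: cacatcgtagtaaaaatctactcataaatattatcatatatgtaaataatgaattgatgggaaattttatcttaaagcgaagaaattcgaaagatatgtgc
fz, intron, 91986 bp downstream, chr3L:14366279-14366379: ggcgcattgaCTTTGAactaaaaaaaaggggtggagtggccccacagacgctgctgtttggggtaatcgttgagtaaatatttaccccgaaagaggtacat
ci, 2076 bp upstream, chr4:59067-59167: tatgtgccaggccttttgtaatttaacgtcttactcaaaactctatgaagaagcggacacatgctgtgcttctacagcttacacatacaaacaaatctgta
ci, 3313 bp upstream, chr4:60304-60404: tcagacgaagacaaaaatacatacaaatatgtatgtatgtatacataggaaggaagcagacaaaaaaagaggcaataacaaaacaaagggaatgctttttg
hh, 2013 bp upstream, not thresholded, chr3R:23143869-23143969: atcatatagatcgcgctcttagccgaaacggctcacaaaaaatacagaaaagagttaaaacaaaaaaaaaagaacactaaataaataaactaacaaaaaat
wg, 223 bp upstream, not thresholded, chr2L:7306886-7306986: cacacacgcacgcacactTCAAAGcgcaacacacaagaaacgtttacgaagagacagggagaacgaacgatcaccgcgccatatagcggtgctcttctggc
arm, intron, 210 bp downstream of a TSS, not thresholded, chrX:1900386-1900486: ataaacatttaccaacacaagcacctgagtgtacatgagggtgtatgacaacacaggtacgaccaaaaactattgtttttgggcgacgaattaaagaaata
A or T made up 70 and 81 of the 101 bases at the nkd peaks, 66, 75 and 54 at the fz peaks and 62 and 69 at the ci peaks, in the order shown. The weaker peaks had 73 at hh, 47 at wg and 63 at arm. The intronic nkd sequence has the longest unbroken run of A and T of the 10, at 16 bases. The TCF word stands in the fz sequence at 91986 bp and, on the reverse strand, in the wg sequence. Neither of the ci sequences shown holds any of the 7 words.

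**Figure D1:**
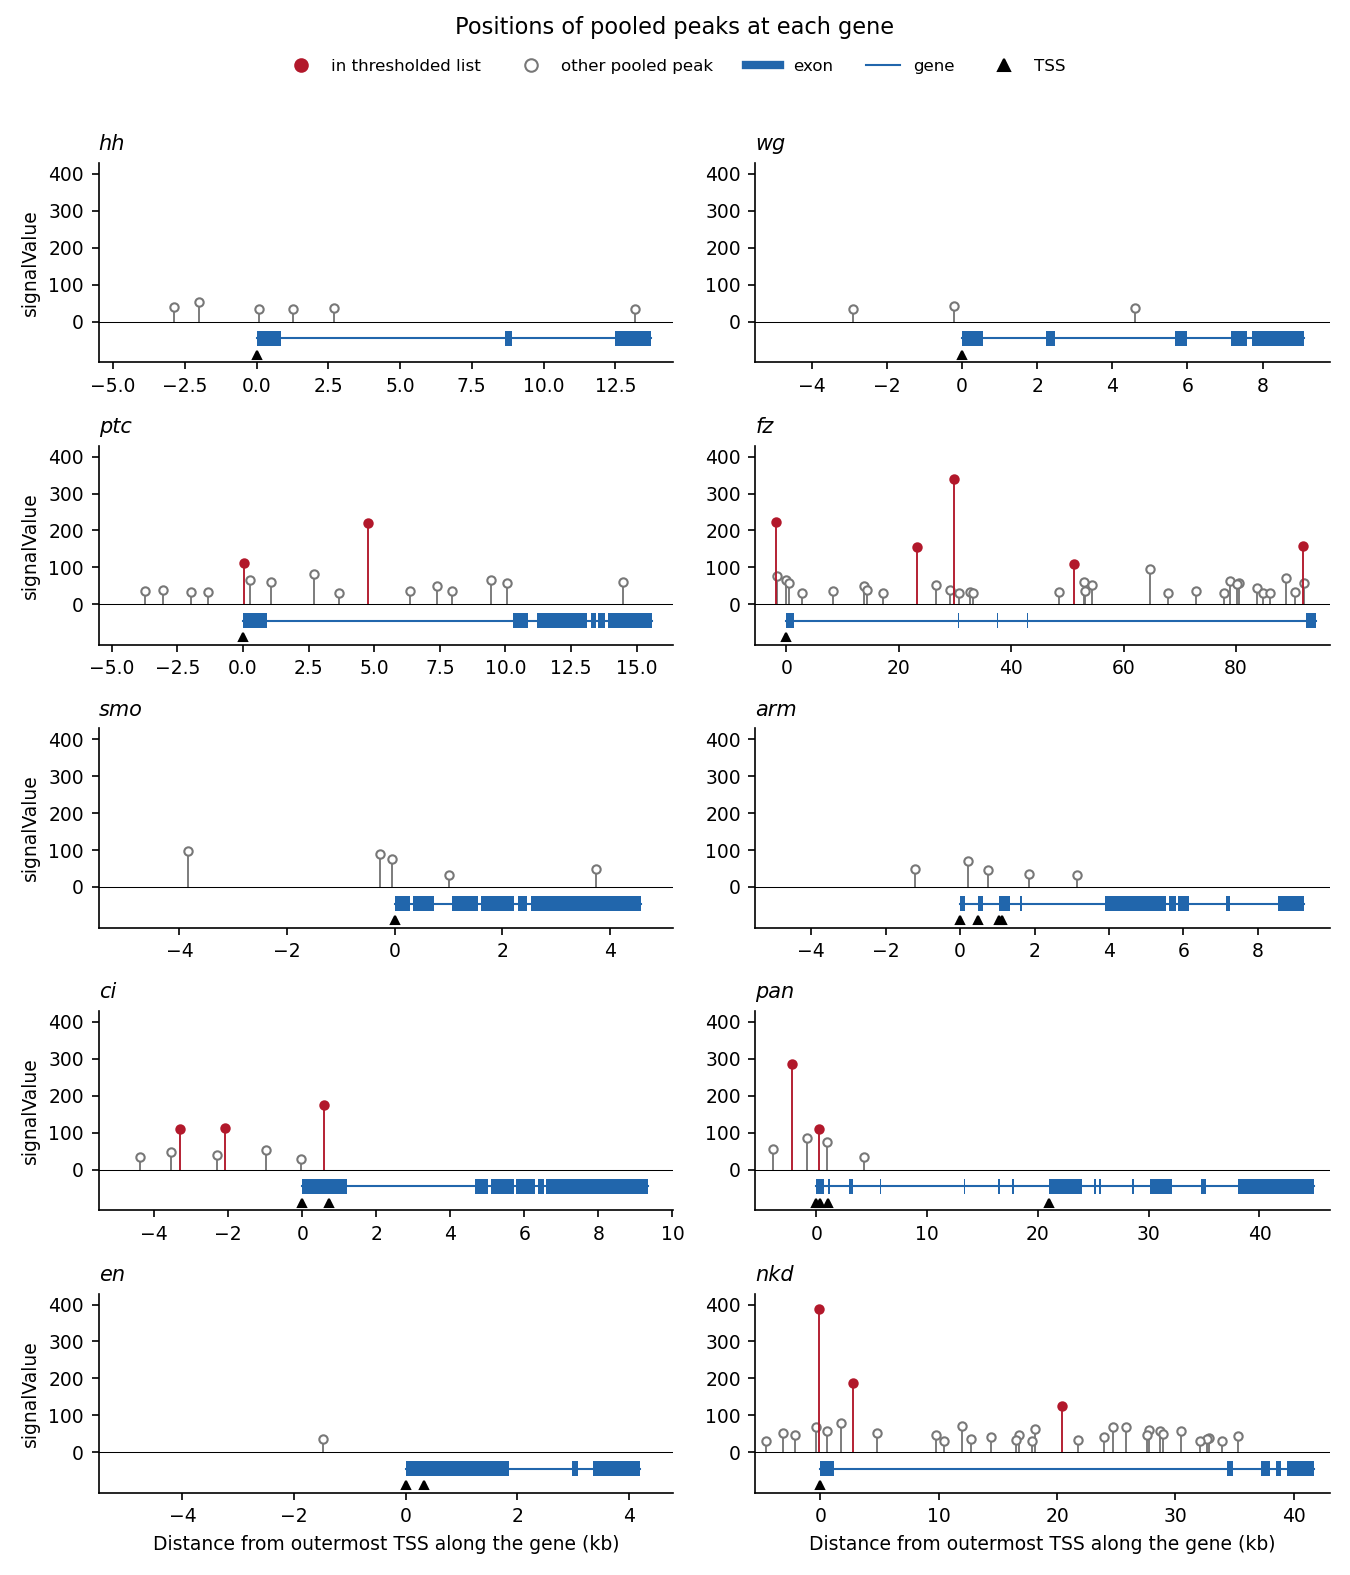
Pooled peaks at the 10 genes (Hedgehog pathway on the left, Wingless pathway on the right), with the distance of each summit from the gene's outermost TSS in kb on the x axis, which differs in scale between panels, and the pooled signalValue on the y axis. Blue blocks are exons and triangles are TSSs. Filled red points are in the thresholded list and open grey points are other pooled peaks. Red points stand at ptc, ci, fz, pan and nkd, and fz and nkd carry many low peaks in their introns.

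Of the Hedgehog genes, the ligand gene hh (FBgn0004644, 3R, 23128169 to 23141906, minus strand) had 6 pooled peaks. The highest lay 2013 bp upstream with a signalValue of 53.3 at rank 11348. It overlapped a replicate 1 peak of rank 12682 and no replicate 2 peak. In replicate 2 alone the strongest hh peak was at another site, in an intron 2760 bp downstream of the TSS, at rank 6253; the pooled peak it overlapped, at 2699 bp, had 36.7 and no replicate 1 peak. The peak in the 5' UTR, 79 bp downstream of the TSS, had 33.3 and overlapped no peak of either replicate. The hh peak seen in both replicates was a weaker one, 2869 bp upstream with 39.3, which ranked 18549 in replicate 1 and 23892 in replicate 2.

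The receptor gene ptc (FBgn0003892, 2R, 8649649 to 8665223, plus strand), itself a target of the pathway, had 16 pooled peaks, 2 of them thresholded. The stronger was intronic, 4768 bp downstream of the TSS, with a signalValue of 219 at rank 969, and it ranked 1104 in replicate 1 and 934 in replicate 2. Its nearest TSS was that of lncRNA:CR44281, 2921 bp away. The weaker lay in the 5' UTR, 30 bp downstream of the TSS, with 112 at rank 3332, and ranked 2377 in replicate 1 and 4777 in replicate 2. The intronic peak was thus placed above the promoter peak in the pooled list and in both replicates. The other 14 peaks had signalValues from 30.4 to 83.3, and 8 of them were intronic.

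The transducer gene smo (FBgn0003444, 2L, 277582 to 282167, plus strand) came closest to the threshold among the genes without a thresholded peak. Its highest pooled peak had 98.0 at rank 4271 and lay 3843 bp upstream of smo, but only 24 bp upstream of a TSS of mbm. It ranked 7232 in replicate 1 and 2543 in replicate 2, and in replicate 2 that is among the 3672 strongest. Nearer to smo, peaks 272 and 47 bp upstream of its TSS had 88.0 and 76.3, and the peak at 272 bp was 98 bp from a TSS of CG17078.

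The transcription factor gene ci (FBgn0004859, 4, 47710 to 57041, minus strand) had 8 pooled peaks, 3 of them thresholded. The strongest lay 120 bp upstream of the inner of its TSSs, in the 5' UTR of the longer transcript, with a signalValue of 176 at rank 1451 (4, 56259 to 56642). It ranked 1524 in replicate 1 and 1839 in replicate 2, and was 46 bp from the TSS of asRNA:CR43957. The others lay 2076 and 3313 bp upstream, with 112 at rank 3365 and 111 at rank 3440. Their ranks were 4557 and 2753 in replicate 1 and 6026 and 5183 in replicate 2, lower than in the pooled list for all but the second in replicate 1.

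The homeodomain factor gene en (FBgn0000577, 2R, 11524006 to 11528210, minus strand) had 1 pooled peak, 1477 bp upstream, with a signalValue of 35.9 at rank 21417. It overlapped a replicate 1 peak of rank 10523 and no replicate 2 peak, and the strongest en peak of replicate 2, at rank 24475, was intronic, 2297 bp downstream of a TSS. The pooled value was the lowest best signalValue of the 10 genes.

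Of the Wingless genes, the ligand gene wg (FBgn0284084, 2L, 7307159 to 7316265, plus strand) had 3 pooled peaks, none of which overlapped a peak in both replicates. The highest, 223 bp upstream of the TSS, had 42.1 at rank 16373 and was found in replicate 2 (rank 6591). The peaks 4609 bp downstream (36.0) and 2897 bp upstream (33.1) were found in replicate 1 (ranks 26062 and 28834).

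The receptor gene fz (FBgn0001085, 3L, 14274343 to 14368639, plus strand) had 35 pooled peaks and the most thresholded ones, 1 upstream and 4 intronic. The strongest lay 29752 bp downstream of its TSS with a signalValue of 339 at rank 409, and ranked 375 in replicate 1 and 478 in replicate 2. The upstream peak, at 1799 bp, had 222 at rank 949, and ranked 967 in replicate 1 and 1028 in replicate 2. The other intronic peaks, 23315, 51130 and 91986 bp downstream, had 155, 110 and 158. The peak closest to the fz TSS, 9 bp upstream, had 66.1 and was not thresholded. For 3 of the 4 intronic peaks another gene had the nearest TSS: lncRNA:CR45025 at 29752 and 51130 bp, and CG13481 at 91986 bp.

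The transducer gene arm (FBgn0000117, X, 1891401 to 1900646, minus strand) had 5 pooled peaks. The highest lay 210 bp downstream of a TSS with 69.4 at rank 7505, and ranked 7974 in replicate 1 and 5475 in replicate 2. The next, with 49.3, was 1211 bp upstream of arm and 54 bp from a TSS of Ldaf1.

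The TCF gene pan (FBgn0085432, 4, 69326 to 114270, plus strand) had 6 pooled peaks, 2 of them thresholded. The stronger had a signalValue of 287 at rank 565, and ranked 691 in replicate 1 and 662 in replicate 2. It lay 2175 bp upstream of pan and 56 bp downstream of the TSS of RpS3A, a ribosomal protein gene. The weaker lay at pan's own promoter, 56 bp upstream of a TSS and in the 5' UTR of a longer transcript (4, 69405 to 69788), with 109 at rank 3544. Its replicate ranks were the farthest apart of the 15: 1667 in replicate 1, and 17035 in replicate 2, where the overlapping peak had its summit 187 bp away. Farther than 500 bp from a TSS, the body of pan held 1 pooled peak (34.8). The peaks of ci and pan together were 5 of the 26 thresholded peaks on chromosome 4.

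The target gene nkd (FBgn0002945, 3L, 19003741 to 19045449, minus strand), whose product antagonises Wingless signalling, had 33 pooled peaks, 3 of them thresholded. The strongest peak of all 10 genes lay 158 bp upstream of its TSS (3L, 19045542 to 19045704), with a signalValue of 389 at rank 312, and ranked 420 in replicate 1 and 266 in replicate 2. The others were intronic, 2765 and 20444 bp downstream, with 188 at rank 1291 and 124 at rank 2773. Both stood higher in replicate 2 (ranks 871 and 2527) than in replicate 1 (2383 and 4095). For the peak at 20444 bp the nearest TSS was that of lncRNA:CR45940, 8895 bp away. Of the 30 weaker nkd peaks, with signalValues from 29.5 to 78.2, 25 were intronic.

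**Figure D2:**
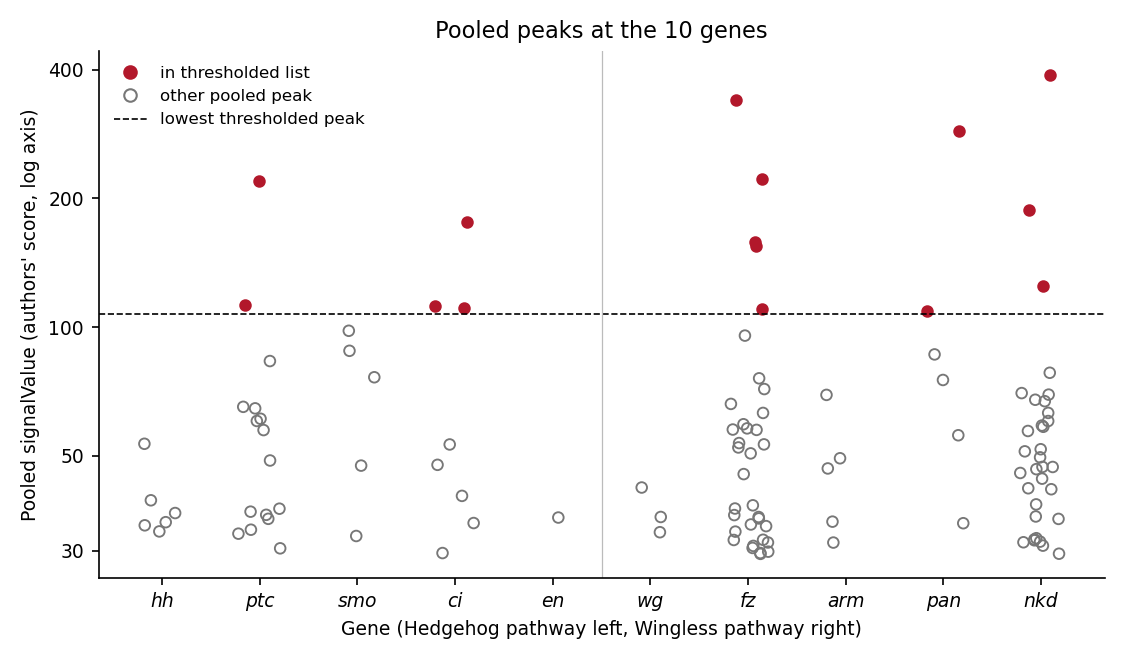
The signalValue of every pooled peak at each gene (log axis, 1 point per peak), with Hedgehog pathway genes on the left and Wingless pathway genes on the right. Filled points are the 15 thresholded peaks and open points the 103 others; hh, smo, en, wg and arm have open points alone.

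The members' peaks just inside the threshold were those at pan (109), fz (110) and ci (111). Just outside were the smo peak near mbm (98.0), an intronic fz peak 64773 bp downstream of the TSS (95.5) and the smo peak at 272 bp (88.0). Counted by peak, 15 of the 118 pooled peaks at the 10 genes were thresholded, or 12.7%, beside 12.2% of all pooled peaks. The median signalValue of the 15 was 158, beside 155 for the whole thresholded list. The windows of the 10 genes covered 298.3 kb with 5.03 thresholded and 39.6 pooled peaks per 100 kb, beside 2.74 and 22.4 per 100 kb over the 6 arms. The windows are placed on genes and their TSSs, while the arms include all sequence between genes, so these densities are not like for like. Among the long genes the density of pooled peaks was 70.7 per 100 kb at nkd, 35.2 at fz and 12.0 at pan, where all of chromosome 4, which carries pan, had 15.6.

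Position varied among the 15 thresholded peaks: 4 lay within 500 bp of the member's own TSS, 7 in introns and 4 farther upstream. Within 500 bp of a TSS of any gene lay 5 of the 15 (33.3%), beside 59.2% of all thresholded summits. The member's own TSS was the nearest for 8 of the 15. The nkd promoter peak and the strongest fz peak were narrow, at 163 and 175 bp, where the other 13 had the full 384 bp; 14.0% of the thresholded list was narrower than that.

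GC content within 50 bp of the summit had a median of 31.7% at the 15 thresholded peaks (range 19.8 to 50.5%) and 38.6% at the 103 others. Over the whole lists the medians were 32.7% at thresholded and 41.6% at other pooled peaks. The TCF word was found at 2 of the 15 (13.3%), the fz peak at 91986 bp and the pan promoter peak, beside 5.26% of all thresholded summits. It was found at 6 of the 103 others (5.83%), beside 5.78% of all other pooled summits. The Ci word was found at 0 of the 15 and 0 of the 103, and at 0.109% of all thresholded summits. The TATA word was at 3 of the 15, beside 23.4% of all thresholded summits, and the GA repeat at 2, beside 10.9%. The homeodomain core, the boundary word and the remaining word were at 0 of the 15, where 10.7%, 8.01% and 13.9% of all thresholded summits held them. A match describes the sequence and is not evidence of a bound site.

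**Figure D3:**
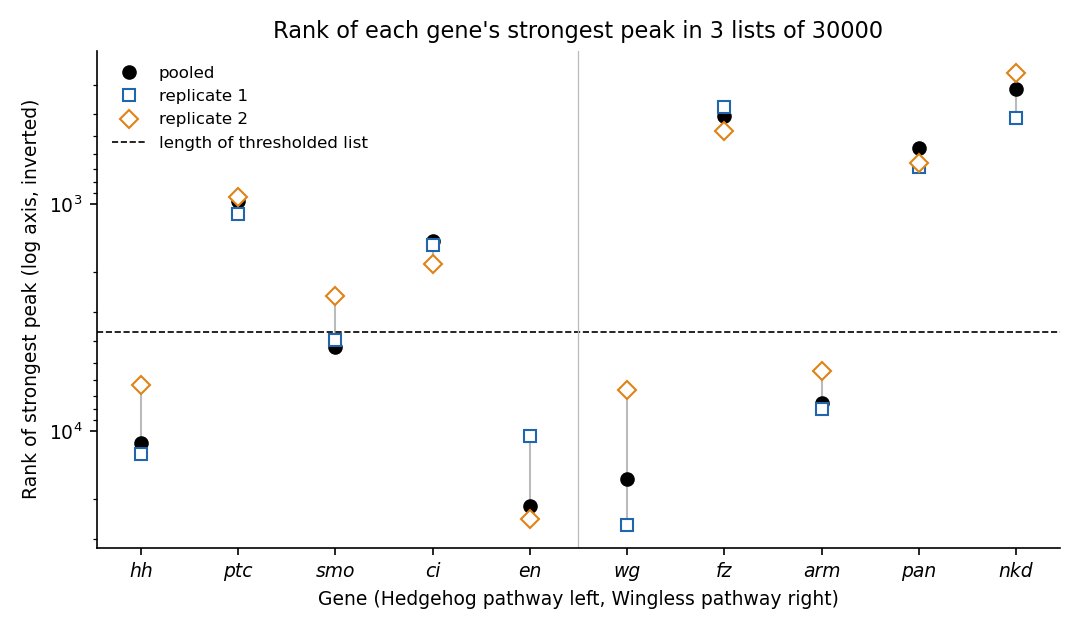
Rank of the strongest peak of each gene in the pooled, replicate 1 and replicate 2 lists (log axis, inverted, so that stronger is higher), with the dashed line at rank 3672, the length of the thresholded list. The 5 genes with thresholded peaks stand above the line in all 3 lists, smo is above it in replicate 2 alone, and hh, en, wg and arm stay below it. The pan points are the peak nearest to the TSS of RpS3A, and the strongest replicate 2 peak nearest to a pan TSS ranked 7518. The smo point of replicate 2 lay 3798 bp upstream of smo and 52 bp from a TSS of CG11555.

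All 15 thresholded peaks overlapped a peak in both replicates. The thresholded list was derived from the replicate and pooled lists, so this overlap is no separate evidence of reproducibility. Among the 3672 strongest peaks of each replicate were 12 of the 15 in replicate 1 and 11 in replicate 2. Of the 103 other member peaks 53 overlapped a peak in both replicates (51.5%, beside 57.7% of all other pooled peaks), 44 in 1 replicate and 6 in neither. Of the 103, 5 shared their replicate match with a stronger, thresholded neighbour. At hh, smo, en, wg and arm together, 7 of 20 pooled peaks overlapped a peak in both replicates: 4 at smo, 2 at arm and 1 at hh.

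**Figure D4:**
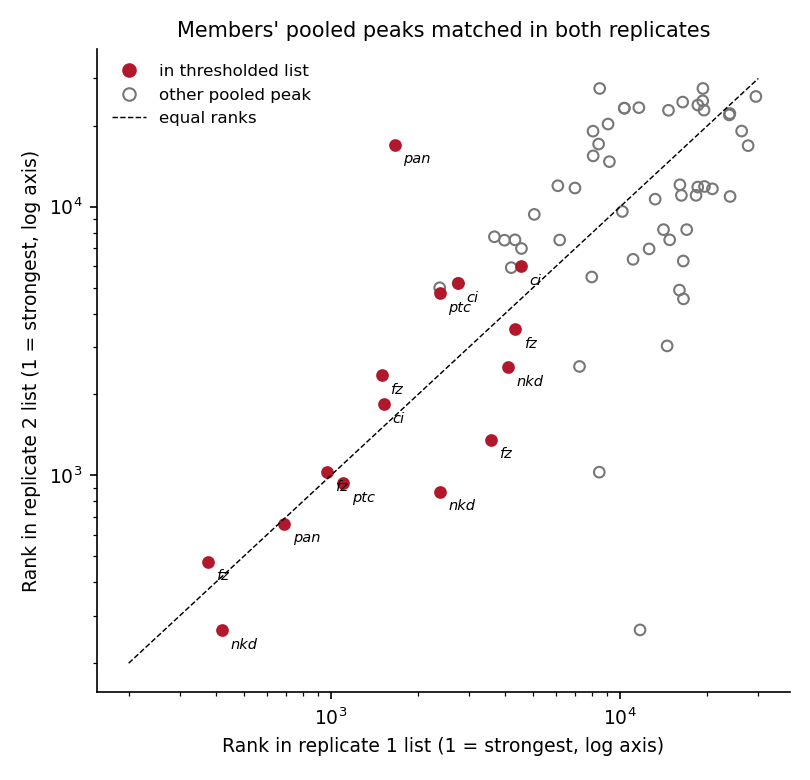
Ranks in replicate 1 (x axis) and replicate 2 (y axis) of the replicate peaks that overlap each pooled peak of the 10 genes, for pooled peaks matched in both (log axes, 1 = strongest). Filled red points are thresholded peaks, open grey points are other pooled peaks, and the dashed line marks equal ranks. The pan promoter peak, at 1667 and 17035, lies farthest from the line among the red points; the grey point at rank 266 in replicate 2 is a weaker nkd peak that overlaps the same replicate 2 peak as the strongest one.

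For the genes without a thresholded peak, the closest one mostly lay at another gene. It was 7374 bp from an arm TSS and 41 bp from one of Edem1, and 8353 bp from the smo TSS and 209 bp from one of CG3625. For hh it was 15182 bp away, 774 bp from a TSS of unk, and for en 65532 bp away, 616 bp from a TSS of tou. At wg it lay 11114 bp upstream with a signalValue of 133 (2L, 7295853 to 7296236), and wg itself had the nearest TSS.

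Among 49 other genes of these pathways and of segment polarity, 29 (59.2%) had a thresholded peak by the same rule. The share was 37.5% of all annotated genes and 40.2% of protein-coding genes. Of the 49, ttv, dally, sgg, rdx, Gprk2 and fz2 are longer than 40 kb, a length at which 55.3% of annotated genes had one. Each of these long genes had a thresholded peak, and the share among the shorter ones was not counted apart. For 15 of the 29 the gene itself had the nearest TSS to its strongest peak. All 5 cytoplasmic Wnt components had one, led by the casein kinase gene gish, with a signalValue of 870 at 158 bp upstream of a TSS. The peak of dsh, which encodes Dishevelled, had 326 and lay 4341 bp upstream, nearest to CG1737. That of Apc2, which encodes a destruction complex scaffold, had 248 and was 60 bp from a TSS of TBC1d7.

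Of 5 Wnt receptor genes 4 had one, with 259 near fz3, 143 at the co-receptor gene arr and 119 at otk. The fz3 peak lay 4725 bp upstream of fz3 and 68 bp from a TSS of lncRNA:CR44966. Of 9 genes for Wnt ligands and their release 4 had one, with 182 at Notum, which encodes a secreted Wnt deacylase, 149 near wls, a Wnt sorting receptor gene, and 129 at Wnt6. The wls peak lay 304 bp upstream of wls and 112 bp from a TSS of Adck5. Of 4 nuclear Wnt components 3 had one, with 235 and 166 at the co-repressor genes gro and CtBP and 135 near lgs, 64 bp from a TSS of CaMKI.

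Among genes of Hedgehog release and reception 6 of 10 had one, with 288 in the glypican gene dlp, 218 at sotv, which acts in heparan sulfate synthesis, and 180 in the glypican gene dally. Cytoplasmic Hedgehog components had one at 6 of 10 genes. The highest, 1284 near the kinase gene Gprk2, lay 85 bp from a TSS of PNPase. The kinase gene sgg, which acts in both pathways, had 474, and rdx, which encodes a ubiquitin ligase adaptor, had 312. Of 6 segment polarity and pair-rule regulators 1 had one, the forkhead factor gene slp2, with 381 at 4320 bp upstream; inv, slp1, gsb, gsb-n and mid had none by this rule.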

How the data were processed

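Data were 4 narrowPeak lists for 2 biological replicates of 1 group. Per the deposited manifests, the authors called peaks on each replicate's alignment and on both together, each against 1 control alignment that was not analysed here, and derived the thresholded list from these 3. The signalValue is the authors' score. The authors' q-value column (-log10) is tied at its top value. It served as an alternative ranking and to describe the peaks of genes without a thresholded peak. Neither labels nor manifests name an aligner or a peak caller; the build is dm6, per the labels. No read counts were used, so depth is unknown. The 3 lists without a threshold end at 30000 peaks each, so still weaker peaks are not analysed here.

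Positions were compared with the Ensembl release 115 annotation without transposable elements (18164 genes, 23998 TSSs). Replicate peaks were matched by an overlap of at least 1 bp, the nearest summit taken, and repeated positions were counted once. The assignment was tested on simulated data with 200 planted summits. Analyses used Python 3.11.15, numpy 2.4.6, pandas 2.3.3 and matplotlib 3.10.9. The members, the 49 pathway genes, the words and the genes named (all members, and up to 3 genes per role by signalValue) were chosen with earlier results of these lists known. Alternatives covered the assignment rule, the threshold, each replicate alone, the ranking, the matching and the word window. Word counts were also made without the peak nearest to RpS3A.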

Additional observations from a re-analysis of the deposited data

How the results depend on the processing

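The 5 genes with a thresholded peak were ptc, ci, fz, pan and nkd under most assignment rules. Within 1000 bp of a TSS alone fz was lost (4 genes, with 4 peaks in place of 15, and 15 of the 49 pathway genes in place of 29), where 18.8% of all annotated genes had a peak in place of 37.5%. With each peak given to the nearest TSS alone there were 8 peaks at 5 genes and 17 pathway genes, beside 14.7% of all genes. With the stronger 1836 thresholded peaks there were 9 peaks at 5 genes and 15 pathway genes, beside 23.0% of all genes. There pan was kept only by the peak nearest to RpS3A (rank 565), as its own promoter peak ranked 3544. Taking 20000 bp, a window chosen after seeing the data, gave 29 peaks at 9 genes, all but en, where 67.3% of all annotated genes had one. Taking the 3672 strongest peaks of replicate 2 alone (without replicate 1) added smo, for 6 genes with 13 peaks, and those of replicate 1 alone (without replicate 2) gave 5 genes with 12 peaks. Requiring a match in both replicates left 68 of 118 pooled peaks. The cause of these changes was not tested. Over all alternatives, 23 of 32 counts stayed within 1.5 times the value given. Best ranks changed by over 1.5 times in 5 of 20 cases with 1 replicate alone (hh and smo in replicate 2, en in replicate 1, wg in both) and in 4 of 10 by q-value, where the strongest peaks tie. Word counts changed by over 1.5 times in 10 of 21 cases. These were all wider windows, which can only keep or raise a count. The 21 also include each word without the peak nearest to RpS3A, an unplanned alternative in which no count within 50 bp changed. CTTTGA was at 5 of 15 within 100 bp, beside 10.3% of all thresholded summits, and GAGAG at 4, beside 23.4%. In that window TATAAA was at 5, beside 36.8%, TAATTA at 1, beside 18.4%, and TTTAAAA at 1, beside 23.1%. TCGATA and GACCACCC were at 0, beside 14.9% and 0.245%. TATAAA was at 9 of 15 within 150 bp, beside 46.0%, and GAGAG at 4, beside 35.7%. Without the peak nearest to RpS3A, CTTTGA was at 4 of 14 within 100 bp and TATAAA at 8 of 14 within 150 bp. No paired analysis was possible because there is 1 group. With 2 replicates and no counts, the error of a single signalValue is unknown.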
